A study of Mus musculus with 32 samples.

Results

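Toll-like receptors are the sensors with which microglia recognise microbial products and material released from damaged cells. The 10 genes described here are Tlr1, Tlr2, Tlr3, Tlr4, Tlr6, Tlr7, Tlr9 and Tlr13, which encode receptors, the co-receptor gene Cd14 and the adaptor gene Myd88. They were chosen by name, with earlier results of these data known, as 10 of the 18588 genes of the table. All 10 were measured in every library. Microglia had been isolated from the pooled forebrains of female mice with CD11b-coupled magnetic beads and their total RNA sequenced. The rTg4510 mice carried 2 transgenes, a mutant human tau gene behind a tetracycline operon-responsive element and a tetracycline-controlled transactivator under the CaMKIIα promoter, a promoter that drives tau in forebrain neurons. WT littermates carried neither transgene, so the transactivator and the tau gene differed together between the genotypes. Both genotypes were sampled at 2, 4, 6 and 8 months of age. The 28 libraries used comprised 4 WT and 4 rTg4510 at 2 months and again at 6 months, and 3 of each genotype at 4 months and again at 8 months. A further 4 libraries (replicate 3 of both genotypes at 4 months and replicate 4 of both at 8 months) had failed the RNAseq QC of the study and enter only where all 32 libraries are named.

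Toll-like receptors work as dimers. TLR2 pairs with TLR1 or TLR6 at the cell surface and recognises bacterial lipoproteins, and TLR4 recognises lipopolysaccharide, which CD14 hands to it. TLR3, TLR7, TLR9 and TLR13 sit in endosomes and recognise nucleic acids: duplex RNA for TLR3, RNA for TLR7, CpG-rich DNA for TLR9 and bacterial ribosomal RNA for TLR13. MyD88 carries the signal of every receptor named here apart from TLR3, through IRAK kinases and TRAF6 to the transcription factor NF-κB, and microglia are among the brain cells in which these genes are most active.

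A gene's value is the log2 signal deposited by the authors. These signals are not scaled to gene length, so levels are compared between groups and never between genes. Log2 fold changes are rTg4510 minus WT. A gene counted as a DEG (differentially expressed) when its FDR was below 0.05 and its change larger than 1.5 fold in a linear model fitted to each of the 18588 genes (limma), and "passed the FDR alone" marks a gene under that fold. The median signal was 5.63 in each library, and the lowest signal of a library lay between 1.23 and 2.04. Read totals are not part of the deposited table. The study describes deep paired-end sequencing to a similar depth for every sample, and the number of libraries limits the precision. It calls the libraries of a group biological replicates and describes isolation from forebrains pooled over several animals, so the FDR measures the spread between such preparations and not between single mice. All 10 microglia markers that were looked up, Tmem119, P2ry12 and Cx3cr1 among them, were measured. The log2 of their summed signal lay between 14.5 and 15.3 in every library, and that of any list of other cell types reached at most 11.1. Such sums hold different genes, gene lengths and list sizes, so the gap between lists is no measure of purity.

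Tlr2, Tlr1 and Cd14 were the members called as DEGs with higher signal in rTg4510 microglia, and Tlr3 was the one called with lower signal. Tlr4 (-0.41) and Tlr13 (-0.33) were also lower at 6 months, past the FDR alone, as was Tlr4 at 8 months (-0.40). After quantile normalization both were DEGs at 6 and 8 months. At 4, 6 and 8 months Tlr2 was 2.75, 3.02 and 3.28 fold higher, Cd14 was 1.88, 2.31 and 2.37 fold higher, and Tlr1 was 2.05, 2.08 and 1.87 fold higher than in WT. Tlr3 was 1.90 fold lower at 6 months and 1.67 fold lower at 8 months. Tlr4, Tlr6, Tlr7, Tlr9, Tlr13 and Myd88 were DEGs at none of the 4 ages in the analysis of the 28 libraries as deposited. At 2 months 0 of the 10 genes were DEGs by limma, with or without moderated variances, and 7 had an unadjusted p under 0.05, as did 16.5% of all genes.

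These counts stand against the share of all genes called in the same contrast. At 2 months 1.58% of the 18588 genes were DEGs with higher and 0.403% with lower signal. At 4 months 3 members were up-regulated and 0 down-regulated, beside 9.47% and 4.33% of all genes. At 6 months 3 were up-regulated and 1 down-regulated, beside 11.3% and 8.54%. At 8 months the counts were again 3 and 1, beside 10.5% and 5.37%. After quantile normalization, which gives every library the same distribution of signals, the counts up and down were 2 and 1 at 4 months (8.84% and 4.84% of all genes), 3 and 3 at 6 months (10.7% and 8.3%) and 3 and 3 at 8 months (10.4% and 6.78%). The median log2 fold change of the 10 members was -0.17, 0.01, -0.18 and -0.09 at 2, 4, 6 and 8 months, beside 0.01, -0.04, -0.04 and -0.01 over all genes. After quantile normalization the members' medians were -0.26, -0.27, -0.33 and -0.33, beside -0.0022, -0.04, -0.02 and -0.03 over all genes. The medians stand for members that went both ways, since in either scaling the values of Tlr1, Tlr2 and Cd14 were positive and those of Tlr3, Tlr4, Tlr6, Tlr13 and Myd88 negative at every age. Without the limit on fold, 2 members were higher and 3 lower at 2 months (4.76% and 1.27% of all genes), 3 and 1 at 4 months (14.1% and 9.1%), 3 and 3 at 6 months (19.1% and 14.9%) and 3 and 2 at 8 months (16% and 9.78%). Each of the 5 members at 2 months fell short of the FDR under at least 1 of 35 alternatives, Tlr13 under 26 of them, and the number of members past the FDR at that age ranged from 1 to 6 over the alternatives. At 8 months the count of lower members was 4 with the replicate number as a block (10.3% of all genes), Tlr6 and Myd88 being added. The libraries of the genotypes did not overlap for 5, 4, 7 and 8 of the 10 members at 2, 4, 6 and 8 months, where this held for 11%, 36.6%, 32.8% and 36.7% of all genes.

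**Figure D1:**
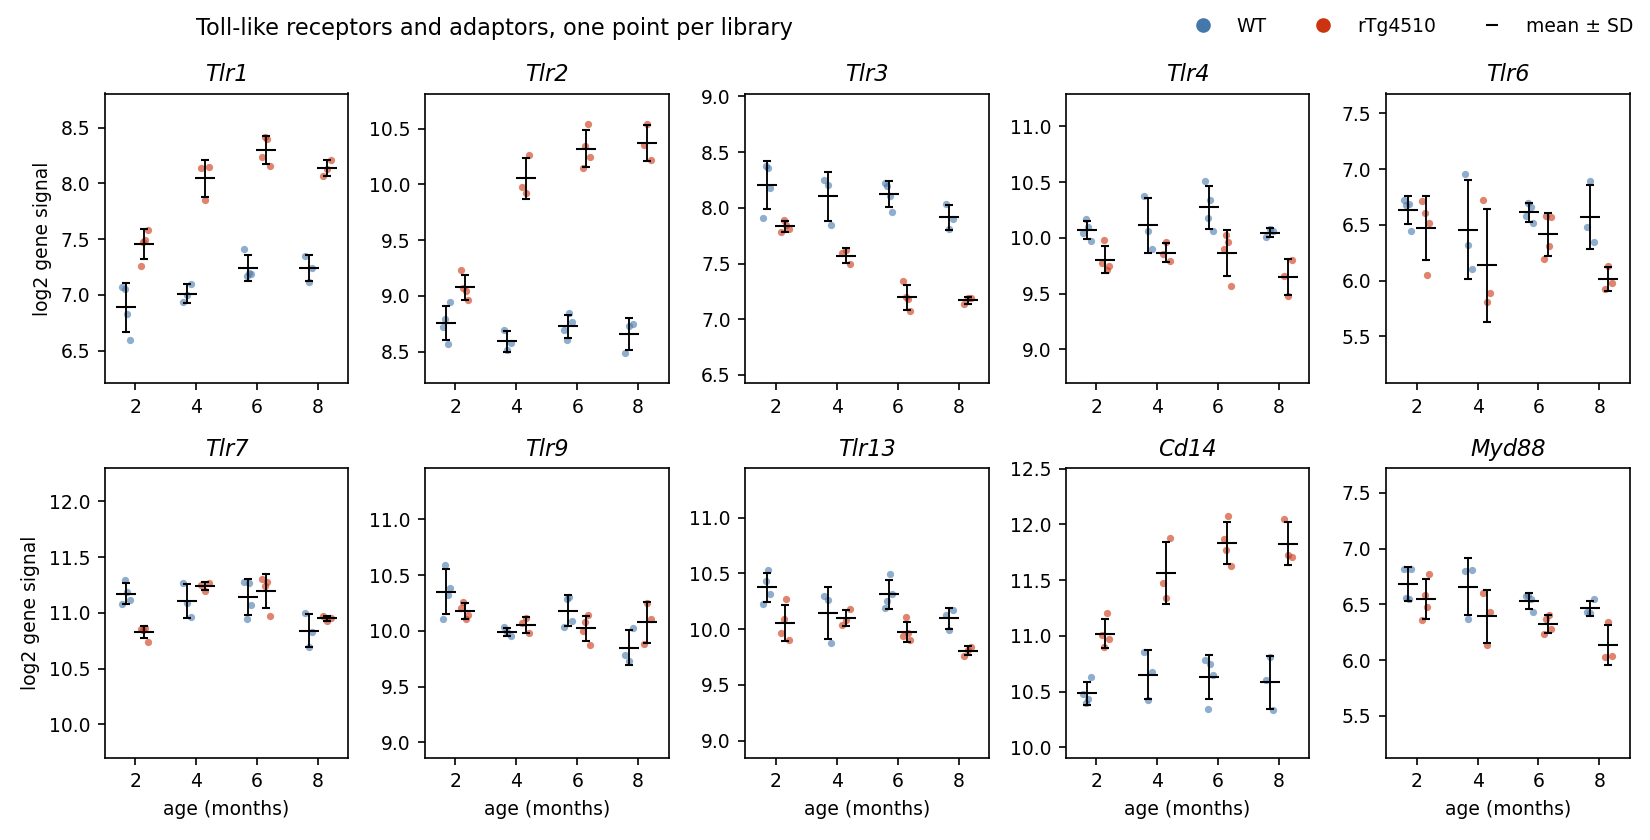
Log2 gene signal (y axis) of the 10 genes by age in months (x axis), with each point a library (blue WT, red rTg4510) and black bars the mean ± SD of 3 or 4 libraries. Each panel spans the same number of log2 units. The rTg4510 libraries of Tlr1, Tlr2 and Cd14 lie above the WT libraries at every age and those of Tlr3 below them.

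Short stretches near the starts of Tlr1, Tlr2 and Tlr3, 3 of the 4 genes that were DEGs, are shown because NF-κB acts downstream of these receptors and PU.1 is a transcription factor of the myeloid lineage. Promoter entries on GRCm38.p6 were at hand for 7 of the 10 genes, without Cd14, Tlr4 and Tlr7. The 250 bases before each start were searched on both strands for GGGNNNNNCC (NF-κB), GAAANNGAAA (an interferon response element), TGANTCA (AP-1) and GAGGAAG (a PU.1 core). The stretches, of 30 bases each on the minus strand, are chr3:83841762-83841791 for Tlr2, chr5:64933562-64933591 for Tlr1 and chr8:45410572-45410601 for Tlr3, with the matching letters in capitals. Each lies before the start of its promoter entry, yet inside the annotated span of the gene and over an exon that GENCODE gives it.
Tlr2: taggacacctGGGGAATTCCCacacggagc
Tlr1: ttaaatgttgGAGGAAGtaggagcttgaat
Tlr3: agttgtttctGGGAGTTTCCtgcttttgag

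The Tlr2 capitals are 2 overlapping matches to GGGNNNNNCC, 173 and 172 bases before the start. Tlr3 holds 2 such matches, of which the printed match lies 211 bases before the start, and Tlr6 holds 1 before 1 of its 2 starts. This pattern is common, since 45.8% of the 32851 promoter entries hold it. GAGGAAG lies 23 bases before 1 of the 2 starts of Tlr1 and also before Tlr9 and Tlr13, and 10.6% of all entries hold it. GAAANNGAAA was found before Tlr6 and Myd88 (2.98% of entries) and TGANTCA before Tlr9 (6.75%). So the gene that rose most and the DEG that fell both carry the NF-κB letters, and the matches describe the sequence only.

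Tlr2, on chromosome 3 (83836272 to 83841824, GRCm38), showed the largest change of the 10 genes. At 2 months the WT libraries read 8.72, 8.79, 8.57 and 8.94 and the rTg4510 libraries 9.23, 9.07, 9.04 and 8.97. At 4 months the WT libraries read 8.70, 8.51 and 8.57 and the rTg4510 libraries 9.98, 9.92 and 10.27. The groups did not overlap at either age, but the gap at 2 months was small beside that at 4 months. At 6 months the WT libraries read 8.69, 8.61, 8.85 and 8.77 and the rTg4510 libraries 10.15, 10.34, 10.54 and 10.25. At 8 months the values were 8.49, 8.73 and 8.75 in WT and 10.36, 10.54 and 10.22 in rTg4510. Every rTg4510 library from 4 months on stood more than 1 log2 unit above the highest WT library of its age. The log2 fold change of Tlr2 was 0.32 ± 0.10 (SE) at 2 months, with an FDR of 0.0703, and rose to 1.46 ± 0.12 at 4 months (FDR 7.8e-09). It was 1.59 ± 0.10 at 6 months (FDR 1.1e-10) and 1.71 ± 0.12 at 8 months (FDR 7.2e-10).

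Tlr1, whose product pairs with TLR2, lies on chromosome 5 (64924680 to 64933600). At 2 months its WT libraries read 7.07, 7.05, 6.82 and 6.60 and its rTg4510 libraries 7.26, 7.48, 7.49 and 7.58. The groups did not overlap, and the log2 fold change of 0.57 ± 0.10 (FDR 0.00097) passed the FDR alone, at 1.48 fold. It would count as a DEG without rTg4510 replicate 1 (0.63), WT replicate 1 (0.63) or WT replicate 2 (0.62) of that age. At 4 months the WT libraries read 6.94, 6.999 and 7.10 and the rTg4510 libraries 8.14, 7.85 and 8.14, a log2 fold change of 1.03 ± 0.12 (FDR 6.3e-07). At 6 months WT gave 7.42, 7.17, 7.20 and 7.19 and rTg4510 8.24, 8.42, 8.40 and 8.16, a change of 1.06 ± 0.10 (FDR 2.9e-08). At 8 months WT gave 7.35, 7.12 and 7.24 and rTg4510 8.07, 8.13 and 8.21, a change of 0.90 ± 0.12 (FDR 3.2e-06). The difference was thus of much the same size at 4, 6 and 8 months.

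Tlr6, the other partner of TLR2, lies 19491 bases from Tlr1 on the same chromosome (64953092 to 64970942). It was a DEG at none of the ages, with log2 fold changes of -0.16, -0.32, -0.20 and -0.56 at 2, 4, 6 and 8 months. Its libraries scattered more than those of any other member at 4 months, with SDs of 0.44 in WT and 0.51 in rTg4510. At 8 months the WT libraries read 6.48, 6.90 and 6.34 and the rTg4510 libraries 5.92, 6.13 and 5.98, so the groups did not overlap, with an FDR of 0.0747 (95% interval of the change -1.03 to -0.09). With the replicate number as a block the FDR was 0.0126. At 4 months Tlr6 would be a DEG without rTg4510 replicate 1 (-0.61, FDR 0.0449) and with all 32 libraries (-0.64, FDR 0.0437). Of the 100-base words of the Tlr1 transcripts 7.89% also occur in Tlr6 transcripts, and 7.09% the other way round. Whether reads that match both genes were counted is not stated in the sources used here, so a share of their signals cannot be told apart. Tlr6 also overlaps Fam114a1 and Mir574, and the counting is not stated to use strand.

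The gap between both partners of TLR2 therefore widened in rTg4510 microglia. Within a library Tlr1 exceeded Tlr6 by 0.25 ± 0.12 log2 units (SD) in WT and 0.98 ± 0.37 in rTg4510 at 2 months. The same difference was 0.55 ± 0.52 and 1.91 ± 0.43 at 4 months, 0.63 ± 0.16 and 1.89 ± 0.23 at 6 months, and 0.66 ± 0.38 and 2.13 ± 0.12 at 8 months. The libraries of the genotypes did not overlap at any age. Such a difference within a library is not touched by a constant shift of that library, but quantile normalization can move it. At 8 months that scaling moved the log2 fold changes of Tlr1 and Tlr6 by -0.08 and -0.02. Those of Cd14 and Tlr4 moved by -0.43 and -0.28. The absolute size of such a difference also holds the lengths of both genes, so only its change between groups is read here.

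**Figure D2:**
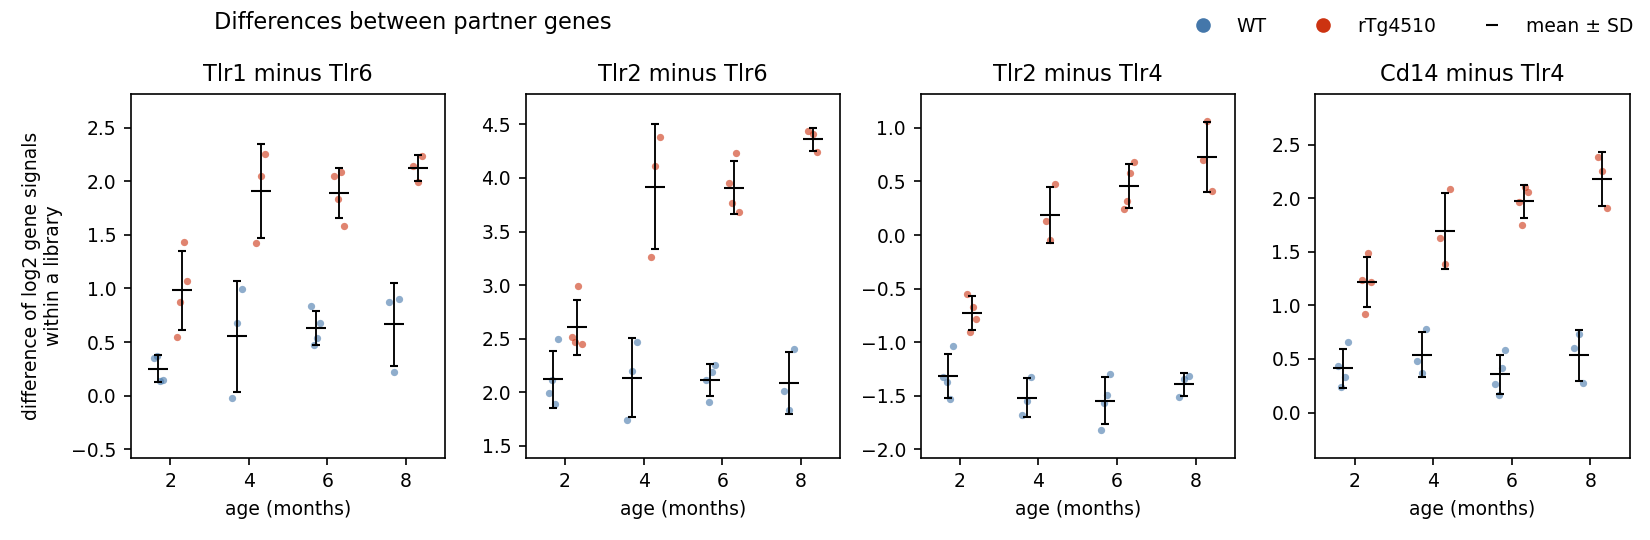
Difference of the log2 gene signals of 2 genes within a library (y axis, log2 units) by age in months (x axis), with points as libraries and black bars the mean ± SD of 3 or 4 libraries. Tlr1 minus Tlr6 and Cd14 minus Tlr4 are higher in the rTg4510 than in the WT libraries at every age. The panels for Tlr2 minus Tlr4 and Tlr2 minus Tlr6 have 1 overlap, at 2 months, where Tlr2 minus Tlr6 reaches 2.50 in WT and begins at 2.45 in rTg4510.

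Cd14, on chromosome 18 (36725064 to 36726815), encodes the co-receptor that presents lipopolysaccharide to TLR4 and lipopeptides to TLR2. At 2 months the WT libraries read 10.48, 10.40, 10.43 and 10.63 and the rTg4510 libraries 11.01, 10.90, 11.20 and 10.97. At 4 months WT gave 10.86, 10.42 and 10.68 and rTg4510 11.48, 11.34 and 11.88. The groups were apart at both ages. At 6 months WT gave 10.78, 10.34, 10.75 and 10.65 and rTg4510 11.87, 11.78, 12.07 and 11.62. At 8 months WT gave 10.60, 10.81 and 10.34 and rTg4510 12.05, 11.73 and 11.71. The lowest rTg4510 library again lay above the highest WT library. The log2 fold change was 0.54 ± 0.14 at 2 months (FDR 0.019, past the FDR alone), 0.91 ± 0.16 at 4 months (FDR 0.00015), 1.21 ± 0.14 at 6 months (FDR 4.0e-07) and 1.24 ± 0.16 at 8 months (FDR 2.7e-06). The call at 4 months was lost when only the 6 libraries of that age were fitted (FDR 0.0705) and after quantile normalization, where the change was 0.52. That scaling also ended the pass at 2 months (0.37, FDR 0.128) and brought the changes at 6 and 8 months to 0.74 and 0.82, which remained DEGs.

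Tlr4, on chromosome 4 (66827551 to 66846581), encodes the receptor that CD14 serves. Its log2 fold change was -0.27 ± 0.11 at 2 months (FDR 0.211) and -0.24 ± 0.13 at 4 months (FDR 0.193). At 6 months the WT libraries read 10.51, 10.18, 10.34 and 10.06 and the rTg4510 libraries 9.90, 10.02, 9.97 and 9.57, and at 8 months WT gave 10.004, 10.08 and 10.06 and rTg4510 9.66, 9.48 and 9.80. At both later ages every rTg4510 library lay below the WT libraries, and the changes of -0.41 ± 0.11 (FDR 0.0067) and -0.40 ± 0.13 (FDR 0.024) passed the FDR alone. With all 32 libraries or only the groups compared neither passed, and at 8 months 4 of the 28 libraries each ended the pass when left out (replicates 1 and 2 of rTg4510 and 2 and 3 of WT of that age). After quantile normalization the changes were -0.72 and -0.68, and Tlr4 was a DEG at both ages. Ly96, which encodes the TLR4 partner MD-2, passed the FDR alone at 2 months (-0.40, FDR 0.0112) and had log2 fold changes between -0.07 and -0.03 afterwards. Cd14 minus Tlr4 within a library was 0.41 ± 0.18 (SD) in WT and 1.22 ± 0.23 in rTg4510 at 2 months, and 0.54 ± 0.24 and 2.18 ± 0.25 at 8 months, so the co-receptor and its receptor moved apart.

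Tlr3, on chromosome 8 (45395665 to 45411075), was the member called as lower, and its product signals through TRIF rather than MyD88. At 2 months the WT libraries read 7.91, 8.38, 8.36 and 8.18 and the rTg4510 libraries 7.78, 7.89, 7.85 and 7.81. At 4 months WT gave 8.25, 8.21 and 7.84 and rTg4510 7.60, 7.62 and 7.50. At each of these ages the lowest WT library lay close above the highest rTg4510 library. At 6 months WT gave 8.23, 8.20, 8.10 and 7.97 and rTg4510 7.35, 7.20, 7.18 and 7.07. At 8 months WT gave 8.03, 7.81 and 7.90 and rTg4510 7.14, 7.19 and 7.19. By then the gap between the groups exceeded the spread within either. The log2 fold change was -0.37 ± 0.10 (FDR 0.0202) at 2 months and -0.53 ± 0.11 (FDR 0.001) at 4 months, which passed the FDR alone, then -0.92 ± 0.10 (FDR 1.1e-07) at 6 months and -0.74 ± 0.11 (FDR 2.1e-05) at 8 months. Tlr3 would also be a DEG at 4 months without WT replicate 4 of that age (-0.66) and after quantile normalization (-0.60). Of its 100-base words 3.32% also occur in Gm45542, which overlaps its exons.

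Tlr7, on chromosome X (167303380 to 167330574), differed between the genotypes at 2 months. The WT libraries then read 11.08, 11.29, 11.19 and 11.12 and the rTg4510 libraries 10.86, 10.84, 10.86 and 10.74, without overlap, and the change of -0.34 ± 0.08 passed the FDR alone (FDR 0.0129). At 4, 6 and 8 months the groups overlapped, with log2 fold changes of 0.13, 0.06 and 0.11 and 95% intervals within -0.12 and 0.33. The sign rests on the scaling, since after quantile normalization these changes were -0.28 (FDR 0.0578), -0.42 (FDR 0.00103) and -0.30 (FDR 0.0395), and the change at 2 months was -0.54 (FDR 0.00077). Unc93b1, which encodes the chaperone that brings the nucleic acid receptors to endosomes, had log2 fold changes of -0.02, 0.06, 0.20 and 0.25, and the values at 6 and 8 months passed the FDR alone (FDR 0.0352 and 0.0308).

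Tlr9, on chromosome 9 (106222598 to 106226876), had log2 fold changes of -0.17, 0.06, -0.16 and 0.23 at 2, 4, 6 and 8 months, overlapping groups at each age and FDR values from 0.138 to 0.732. After quantile normalization the values were -0.33 (FDR 0.0376), -0.18 (FDR 0.257), -0.46 (FDR 0.00054) and -0.06 (FDR 0.741), so the sign turned at 4 and 8 months and the FDR alone was passed at 2 and 6 months. Tlr13, on chromosome X (106143275 to 106160493), passed the FDR alone at 2 months (-0.32 ± 0.09, FDR 0.049) and at 6 months (-0.33 ± 0.09, FDR 0.0084). Its changes at 4 and 8 months were -0.04 (FDR 0.843) and -0.29 (FDR 0.0526). At 6 and 8 months the highest rTg4510 library of Tlr13 (10.11 and 9.84) lay below the lowest WT library (10.19 and 9.99). After quantile normalization Tlr13 was a DEG at 6 months (-0.65) and 8 months (-0.59). Of the endosomal receptors among the members Tlr3 was thus the one called in the deposited scaling, and with quantile normalization Tlr13 was called as well.

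Myd88, on chromosome 9 (119335934 to 119340018), had log2 fold changes of -0.14, -0.27, -0.21 and -0.33 at 2, 4, 6 and 8 months, none past the FDR (0.64, 0.158, 0.161 and 0.0689). Its libraries did not overlap at 6 months (WT 6.43 to 6.58, rTg4510 6.24 to 6.41) or at 8 months (WT 6.42 to 6.54, rTg4510 6.03 to 6.34). At 8 months the 95% interval of the change ran from -0.60 to -0.06, with every rTg4510 library below every WT library. With the replicate number as a block the FDR was then 0.0307, and after quantile normalization it was 0.04998 (-0.35). Myd88 also passed the FDR alone at 8 months after 75th percentile centring, at 6 months with only the groups compared and at 4 months with all 32 libraries. It was a DEG under none of the 35 alternatives at any age. Tlr2 minus Myd88 within a library was 2.07 ± 0.14 (SD) in WT and 2.53 ± 0.28 in rTg4510 at 2 months, where the libraries overlapped (WT up to 2.23, rTg4510 from 2.19), and 2.19 ± 0.13 and 4.24 ± 0.08 at 8 months. Of the 100-base words of Myd88 4.69% also occur in Acaa1a.

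**Figure D3:**
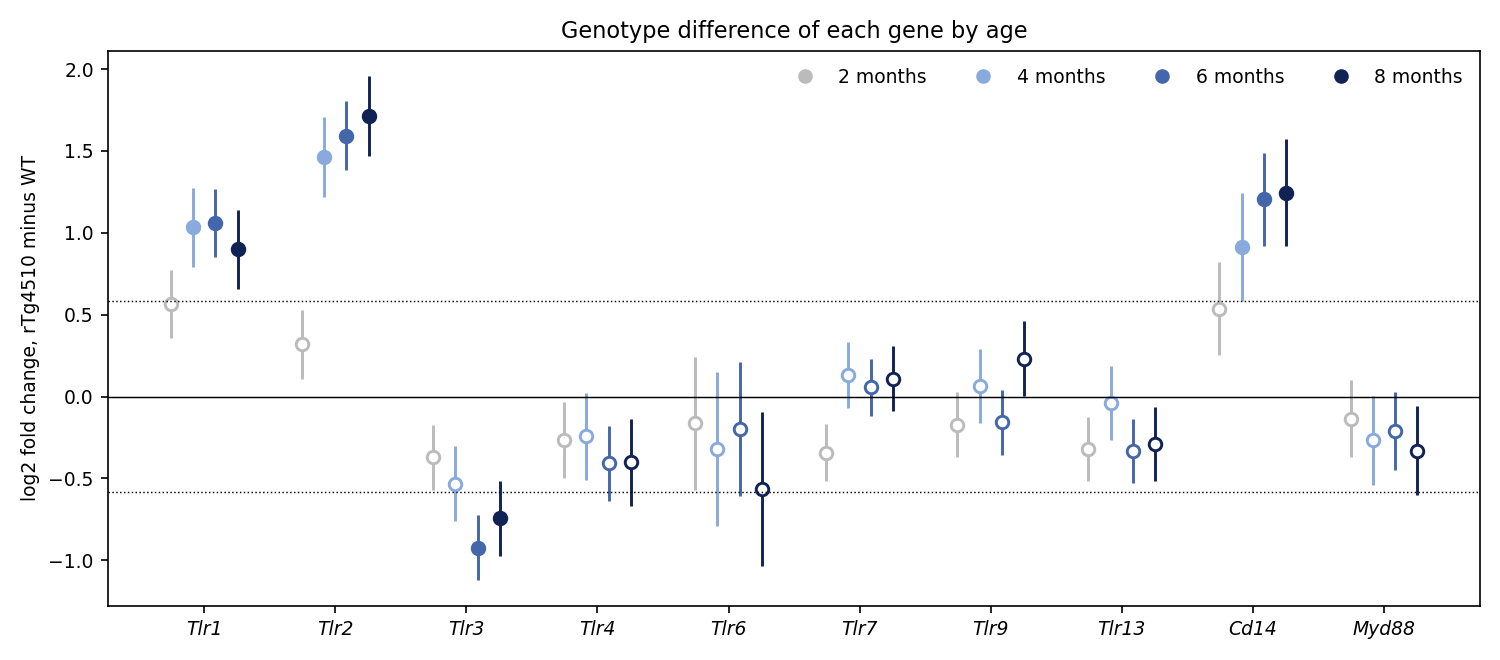
Log2 fold change, rTg4510 minus WT (y axis), of each of the 10 genes at the 4 ages, with bars as 95% intervals of the linear model. Filled points are DEGs, open points are not, and dotted lines mark a change of 1.5 fold. Tlr1, Tlr2 and Cd14 are filled from 4 months on and Tlr3 at 6 and 8 months.

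When the genotype difference was itself compared between ages, Tlr2 was the only member called. Its log2 fold change was larger at 4 than at 2 months by 1.14 ± 0.15 (FDR 7.9e-05), in a contrast that called 4.66% of all genes. Tlr7 passed the FDR alone in that contrast (0.48 ± 0.13, FDR 0.0246), where 7.33% of all genes passed with no limit on fold, DEGs included. It did not pass after quantile normalization (0.26, FDR 0.328), where Tlr2 was still called (1.03). For Tlr1 (0.47 ± 0.15, FDR 0.0681) and Cd14 (0.38 ± 0.21, FDR 0.338) the step from 2 to 4 months did not pass. Between 4 and 6 months 0 members were called by limma (0.156% of all genes, with 1 member and 1514 genes at an unadjusted p under 0.05), and between 6 and 8 months 0 members and 0% of all genes, where 1 member and 841 genes had an unadjusted p under 0.05. The change of Tlr3 from 4 to 6 months was -0.39 ± 0.15 (FDR 0.424). These contrasts share the libraries of an age.

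Within rTg4510 microglia Tlr2 rose by 0.98 ± 0.11 (FDR 2.4e-06) and Tlr1 by 0.59 ± 0.11 (FDR 0.00066) from 2 to 4 months, beside 6.39% of all genes called. Tlr1 lay just above the limit, at 1.51 fold, and was not called after quantile normalization or 75th percentile centring, with only the groups compared, or without rTg4510 replicate 1 of 2 months, replicate 1 of 4 months or replicate 4 of 4 months. Cd14 (0.55 ± 0.15, FDR 0.0143) and Tlr7 (0.41 ± 0.09, FDR 0.003) passed the FDR alone, but not after quantile normalization (0.31, FDR 0.182, and 0.21, FDR 0.195). With no limit on fold, DEGs included, 15.2% of all genes passed the FDR there. Cd14 was a DEG with all 32 libraries and without rTg4510 replicate 3 of 2 months, replicate 1 of 4 months or replicate 2 of 4 months. Without replicate 1 of 4 months Tlr6 was a DEG as well. From 4 to 8 months 0 members were DEGs (2.32% of all genes), with 4 at an unadjusted p under 0.05 beside 20% of all genes. Tlr3 passed the FDR alone (-0.40 ± 0.11, FDR 0.0388), though not after quantile normalization (-0.34, FDR 0.0879). With no limit on fold, DEGs included, 5.06% of all genes passed. In WT microglia 0 members were DEGs between 2 and 8 months (1.27% of all genes), and 5 had an unadjusted p under 0.05, as did 19.2% of all genes. There Tlr9 (-0.50 ± 0.10, FDR 0.0089) and Tlr7 (-0.33 ± 0.09, FDR 0.0418) passed the FDR alone, beside 4.21% of all genes with no limit on fold, DEGs included. Tlr7 did not pass after quantile normalization (-0.23, FDR 0.199), and Tlr9 was a DEG without WT replicate 1 of 2 months or replicate 3 of 8 months. The WT means of Tlr9 were 10.35 ± 0.20 (SD, n = 4) at 2 months and 9.85 ± 0.16 (n = 3) at 8 months, without overlap between the libraries, while the rTg4510 libraries of all ages lay between 9.87 and 10.26.

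Of 71 other genes of the pathway, from a list written out by role, 70 were in the table (Sigirr was not found). The list was written with earlier results of these data known, so its counts may partly reflect that choice. At 2, 4, 6 and 8 months 5, 15, 14 and 15 of the 70 were up-regulated and 0, 2, 1 and 2 down-regulated. Over all genes 1.58%, 9.47%, 11.3% and 10.5% were up-regulated and 0.403%, 4.33%, 8.54% and 5.37% down-regulated. These shares also stand beside the counts of each list below. The 5 DEGs at 2 months became 8 without WT replicate 1 of that age and 9 with the replicate number as a block, and the 17 at 4 and 17 at 8 months became 10 and 11 when only the groups compared were fitted. The median log2 fold changes of the 70 were 0.08, 0.00, 0.19 and 0.10, beside 0.01, -0.04, -0.04 and -0.01 over all genes. Within this list the up-regulated genes were mostly target genes and brakes of the pathway, not receptors or adaptors.

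Among the 4 other receptor genes Tlr5, the flagellin receptor gene, fell at 4, 6 and 8 months (-1.24 ± 0.17, -1.53 ± 0.15 and -0.97 ± 0.17), and its libraries did not overlap at any age. Tlr11 fell at 4 months alone (-0.97 ± 0.30, FDR 0.0205). Of 10 co-receptor and trafficking genes only Cd180, whose product restrains TLR4, was a DEG, at 4 months (0.70 ± 0.13). Of 5 further adaptor genes only Tirap, which encodes the bridge from TLR2 and TLR4 to MyD88, was a DEG, at 8 months (-0.69 ± 0.16, FDR 0.0019). Its log2 fold changes at 2, 4 and 6 months were -0.18, -0.38 and -0.44. Ticam2, which encodes the bridge from TLR4 to TRIF, had log2 fold changes of 0.03, 0.31, 0.58 and 0.21 at 2, 4, 6 and 8 months and passed the FDR alone at 6 months (FDR 0.00328). Ticam1, which encodes TRIF, had values of 0.58, -0.12, 0.28 and 0.05, none past the FDR. The adaptors thus went both ways.

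Among 17 genes of the kinase cascade Map3k8, which encodes the kinase TPL2, rose at 4, 6 and 8 months (0.80, 1.29 and 1.54), and Ikbke rose at 8 months (0.84). Irak4 and Traf6, the next steps after MyD88, had log2 fold changes between 0.01 and 0.14 and between -0.38 and -0.11 and were not DEGs. Of 9 transcription factor genes Atf3 was a DEG at 6 months (1.08) and Irf7 at 8 months (1.02). Of 10 brakes of the pathway 1 rose at 2 months and 4 at each later age, and 0 fell. Of all genes 1.58%, 9.47%, 11.3% and 10.5% were up-regulated at the 4 ages. Rab7b, which encodes a GTPase that sends TLR4 and TLR9 to lysosomes, rose by 0.92, 2.84, 3.39 and 3.44, more than any of the 10 members. Nfkbia, which encodes the NF-κB inhibitor IκBα, rose by 1.41, 1.69 and 1.44 at 4, 6 and 8 months, and Tnfaip3, which encodes the ubiquitin-editing enzyme A20, by 1.09, 1.72 and 1.61.

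Of 15 target genes 4, 9, 8 and 8 were up-regulated and 0 down-regulated at 2, 4, 6 and 8 months. These genes too were listed with earlier results known, so the counts describe the list and lend no separate support. Among all genes 1.58%, 9.47%, 11.3% and 10.5% were up-regulated. The median log2 fold changes of the targets were 0.57, 1.27, 0.89 and 0.92, beside 0.01, -0.04, -0.04 and -0.01 over all genes. Ccl3, a chemokine gene, was higher by 1.77 ± 0.30 at 2 months (FDR 0.00063) and by 2.61, 2.46 and 2.28 at later ages. At 2 months no member was a DEG, but Tlr1 (1.48 fold, FDR 0.00097) and Cd14 (1.45 fold, FDR 0.019) passed the FDR alone, so no order is read from this. Ccl4 was higher by 1.72, 2.51, 2.41 and 2.17 at the 4 ages, and Il1b, which encodes interleukin-1β, by 0.997, 1.78, 2.41 and 2.26. Il12b was also called at 4, 6 and 8 months, but all libraries of 5 groups lay near the lowest signal, so no fold is given. Many of these genes are targets of other receptors too, among them cytokine receptors.

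**Figure D4:**
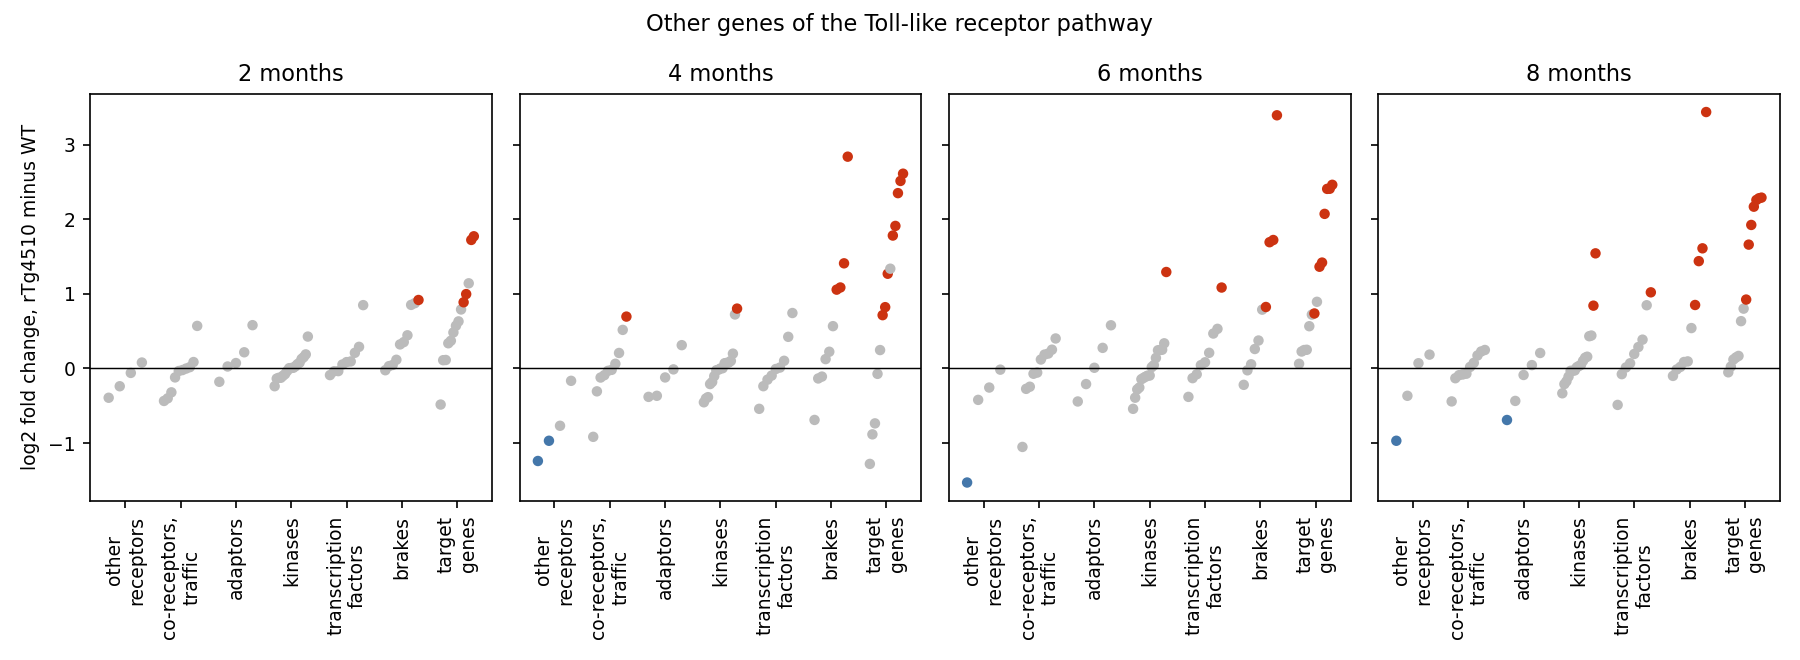
Log2 fold change, rTg4510 minus WT (y axis), of the other pathway genes at 2, 4, 6 and 8 months, with each point a gene, grouped on the x axis by role (Il12b left out). Red points are up-regulated DEGs, blue points down-regulated DEGs and grey points neither. The red points sit mainly among brakes and target genes, with Rab7b highest among the brakes at 3.44 at 8 months.

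Marker genes of other cells were examined beside these results, since CD11b beads also take other myeloid cells, and fewer cells of a type cannot be told apart from less RNA per cell in these libraries. Of 8 neutrophil genes 6 fell at 6 months and 6 at 8 months, with a log2 summed signal of 9.69 to 10.6 in WT and 8.95 to 9.22 in rTg4510 at 6 months, and of 10.4 to 10.7 and 9.04 to 9.68 at 8 months. Ly6g was near the lowest signal in the rTg4510 libraries of 8 months. Of 6 monocyte genes 1 fell at 4 months, 2 rose and 3 fell at 6 months and 1 rose at 8 months, with a summed signal of 7.80 to 8.23 in WT and 8.19 to 8.58 in rTg4510 at 8 months. Of 6 border macrophage genes 1 fell, at 6 months. Of 5 endothelial genes 1 rose and 1 fell at 4 months, 1 rose and 3 fell at 6 months and 1 rose and 1 fell at 8 months, with Pecam1 at -2.12 and Flt1 at 1.89 at 6 months. Of 5 astrocyte genes 1 rose and 1 fell at 6 months and 1 rose and 2 fell at 8 months, when Gfap was at 1.80 and Slc1a2 at -2.14. Of 5 lymphocyte genes 1 fell at 4 months (Cd79a, -1.64) and 1 at 6 months (Nkg7, -1.62), and of 2 neuronal genes Snap25 fell at 6 months (-1.42). The lists of dendritic cells and oligodendrocytes, of 5 genes each, held 0 DEGs at the 4 ages by limma, with 2 and 2 values at an unadjusted p under 0.05. Of 10 microglia markers 1, 2, 3 and 3 were DEGs with lower signal at 2, 4, 6 and 8 months. Their summed signal at 8 months was 14.8 to 15.1 in WT and 14.5 to 14.6 in rTg4510. With no limit on fold, 4, 6, 7 and 7 of them were lower past the FDR and 0, 1, 2 and 1 higher. Over all genes 1.27%, 9.1%, 14.9% and 9.78% were lower by that measure and 4.76%, 14.1%, 19.1% and 16% higher. The median log2 fold changes of these markers were -0.19, -0.32, -0.52 and -0.53. Beside the counts of DEGs in these lists, DEGs with higher signal were 1.58%, 9.47%, 11.3% and 10.5% of all genes at 2, 4, 6 and 8 months. Those with lower signal were 0.403%, 4.33%, 8.54% and 5.37%. The part of the marker shifts in the members' values was not tested.

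For 4 members the genes with the most similar course over the 8 group means were looked up, by the root mean square distance of the centred means. The nearest to Tlr2 were Myo5a (0.07 log2 units), Cpd (0.08) and Stx3 (0.09). Myo5a went from 6.96 in WT to 7.24 in rTg4510 at 2 months and from 6.98 to 8.60 at 8 months, and Tlr2 from 8.66 to 10.37 at 8 months. The nearest to Tlr3 were Gm8246, Pmepa1 and Tcf7l2 (each 0.06), and those to Tlr7 were Rad18, Msmp and Elovl1 (each 0.06). Pmepa1 fell with Tlr3, from 8.43 in WT to 7.61 in rTg4510 at 6 months. Beside Cd14 stood Rpl5-ps2 and Rpl7a-ps7 and a gene listed by Entrez number 667231 (each 0.06), where the first and second are ribosomal protein pseudogenes whose reads may come from their parent genes.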

How the data were processed

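The authors deposited log2 gene signals. Exon reads had been summed per library, exons with low counts dropped, and the remaining exons condensed by robust linear modelling to a signal per gene, which was put on the log2 scale and scaled to a common median. The labels name GRCm38. The aligner is not given in the sources used here. Symbols came from RefSeq (95.9% of the Entrez numbers), and 0 value columns were left unused. The linear model per gene had 8 group means and unmoderated variances with 20 residual degrees of freedom (R 4.3.3 with limma 3.58.1), was two-sided, and FDR values were Benjamini-Hochberg adjusted per contrast. Levels are mean ± SD over libraries, changes ± SE. A group within 1.5 log2 units of the library's lowest value got no fold. The members and lists were chosen with earlier results of these data known. Named were all members, per list up to 3 called genes of largest change each way, of which a choice is given, and the 3 nearest genes for 4 members. Ly96, Unc93b1, Ticam1, Ticam2, Irak4 and Traf6 were named outside this rule, for the roles given with them. None of these was a DEG between the genotypes at any age. The model was tested on simulated data. Word matching and figures used Python 3.11.15, numpy 2.4.6, pandas and matplotlib 3.10.9.

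Same-numbered libraries of the genotypes deviated together at 6 months (r of 0.131 to 0.153) and 8 months (0.15 to 0.291). Libraries of unlike number reached at most 0.0913 and -0.0281 there. At 2 months the ranges met, with 0.0649 to 0.167 for the same number and -0.194 to 0.0816 for unlike numbers. They also met at 4 months (-0.0999 to 0.124 and -0.0709 to 0.154). The main model took no pairs, and the alternative with the replicate number as a block used the numbers at all 4 ages.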

Additional observations from a re-analysis of the deposited data

Results flagged for a closer look

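In 3 of 40 groups of 4 libraries 1 library stood apart from the other 3 by Dixon's criterion, about what chance gives at 1 in 20 groups. They were Tlr1 in WT at 6 months (replicate 1, 7.42), Tlr6 in WT at 2 months (replicate 4, 6.45) and Tlr7 in rTg4510 at 2 months (replicate 4, 10.74). Tlr2 was the member whose genotype difference changed between ages, by 1.14 on the log2 scale from 2 to 4 months.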

How the results depend on the processing

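Of 1400 member log2 fold changes recomputed under the alternatives, 1387 kept their call or lack of one, 11 became DEGs and 2 (Cd14 at 4 months) ceased to be. Another count, of changes that were not called and turned sign, was 8, and 0 called changes reversed. Of the 35 alternatives 28 left out 1 library each, which keeps the log2 fold changes of the other ages. Many of the 1387 were therefore nearly fixed in advance. Under the remaining alternatives 272 kept their call or lack of one, 6 became DEGs and 2 ceased to be. With only the groups compared, pathway DEGs were 10 at 4 months and 11 at 8 months, and members called from 2 to 4 months in rTg4510 were 1; the last was also 1 after quantile normalization and 75th percentile centring. Quantile normalization moved the members' changes by a median of -0.28 at 6 months and turned 3 up and 1 down into 3 and 3 at 6 and 8 months. It moved all-gene calls at 2 months from 293 up and 75 down to 213 and 99. The cause was not tested. With no limit on fold, members called were 5 at 2 months and 2 for the change of the genotype difference from 2 to 4 months. Within WT they were 2 from 2 to 8 months. Within rTg4510 they were 4 from 2 to 4 months and 1 from 4 to 8 months. Pathway genes called were then 28 at 6 months, beside 19.1% of all genes higher and 14.9% lower. With the replicate block pathway genes called at 2 months were 9, and no other count of DEGs changed by over 1.5 times. Lower members past the FDR with no limit on fold at 8 months went from 2 to 4 (Tlr6 and Myd88 added). The block could not give the contrasts of ages within a genotype. Leaving out each library gave 0 to 1 members at 2 months, 1 to 3 in rTg4510 from 2 to 4 months, 0 to 1 in WT from 2 to 8 months, and 4 to 8 pathway genes at 2 months (8 without WT replicate 1). All 32 libraries, moderated variances and the low-signal filter kept every count within 1.5 times.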

Other observations

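Tlr9 was high in the 4 libraries that had failed the RNAseq QC. They read 11.27 (WT) and 12.67 (rTg4510) at 4 months and 10.95 (WT) and 10.94 (rTg4510) at 8 months, while the 28 others lay between 9.73 and 10.59. This was not particular to Tlr9. Tlr12 read 8.91 (WT) and 9.24 (rTg4510) at 4 months and 8.72 (WT) and 8.32 (rTg4510) at 8 months in these libraries. In the 28 others Tlr12 lay between 6.69 and 7.92. For Tlr2 the same 4 libraries read 8.45, 10.53, 8.57 and 10.11, on the side of their genotype.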
